A study of Mus musculus with 2 samples.

Results

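Heat shock proteins are chaperones, the proteins that bind other proteins while these fold, refold or are assembled. The 10 genes described here were taken by symbol from the 31053 genes of the deposited count tables: Hspa1a, Hspa1b, Hspa8 and Hsph1 of the HSP70 family and its exchange factors, the cytosolic HSP90 genes Hsp90aa1 and Hsp90ab1, the J-domain co-chaperones Dnaja1 and Dnajb1, and the mitochondrial chaperonin Hspd1 with its lid protein Hspe1. All 10 symbols were found, each had UMIs in both libraries, and 8 of the 10 reached 20 CPM (UMIs scaled to a total of 1000000 per library or class of cells) in at least 1 library. Hspa1a and Hspa1b did not.

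HSP70 proteins bind short unfolded stretches of a client and release them under the control of ATP, J-domain proteins bring clients and start the ATP cycle, and nucleotide exchange factors such as HSPH1 (HSP110) reset it. HSP90 acts later on kinases, steroid receptors and other clients that are partly folded, while the HSPD1 and HSPE1 chamber folds proteins imported into mitochondria. Hspa1a, Hspa1b, Dnajb1 and Hsph1 are textbook targets of heat shock factor 1, which binds repeated GAA units in their promoters, whereas Hspa8 and Hsp90ab1 are the largely constitutive family members. Blood stem cells are known for a low rate of protein synthesis and for close control of protein quality.

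The 2 samples were LSK CD150+ cells of mouse bone marrow, that is cells sorted as lineage-negative, Sca-1+ and Kit+ with the SLAM receptor CD150. The control group carried the RUNX1 WT label and the other the RUNX1 KO label, in a Runx1F/F Mx1-Cre model in which an interferon-responsive promoter drives the recombinase in blood cells and in other tissues. The labels used here give no age, no inducing agent, no time after deletion and no number of animals, and they do not say whether the WT mice carried the floxed allele or Mx1-Cre. Each genotype had 1 library, so nothing was tested, and every interval below is at 95% and covers counting error only.

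After the cell filter 9472 WT and 10769 KO-labelled cells remained, with medians of 9884 and 9310 UMIs per cell, and 33 of the kept barcodes occurred in both libraries. Runx1 itself stood at 104 CPM in the WT and 196 CPM in the KO-labelled library, and since 3′ tags do not show whether an upstream exon is missing, this checks nothing about the label. The libraries also differed by sex: cells with Y-linked UMIs and no Xist numbered 6690 in the WT and 973 in the KO-labelled library, and cells with Xist alone 9 and 8927. Sex and genotype therefore cannot be told apart over all cells, and values from male cells alone are given beside the main results. Procr, a stem cell marker, had a UMI in 9.90% of cells of the WT and 7.32% of the KO-labelled library, so most cells of either showed no UMI of this marker. Of the marker lists for other cells, the summed level went from 116 to 633 CPM for mature neutrophil genes, from 298 to 180 CPM for mast cell and basophil genes, from 278 to 144 CPM for T and NK cell genes and from 1888 to 969 CPM for megakaryocyte genes. Single genes carried several of these sums. Without Pf4 the megakaryocyte sum was 405 CPM in the WT and 483 CPM in the KO-labelled library, the T and NK sum without Nkg7 was 3.38 and 2.98 CPM, and of the basophil list Cpa3 was higher in the KO-labelled library, at 46.4 and 164 CPM. B cell, macrophage and stromal genes were at 37.4, 21.2 and 30.7 CPM in the WT and 40.3, 18.5 and 32.7 CPM in the KO-labelled library, with 1 B cell gene at 0 UMIs in the latter. None of the other lists named had a member at 0 UMIs in either library, although Prss34, a basophil protease, was at 109 CPM in the WT and 0.0587 CPM in the KO-labelled library. The part of cell makeup in the chaperone differences was not tested beyond the marker classes below.

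Promoter windows of 7 members were searched for the letters of the heat shock element, and some of these windows are printed here. They are RefSeq windows on GRCm38.p6 from 250 bases before to 50 bases after the annotated start, printed 5′ to 3′ on the gene's own strand, with heat shock element matches in capitals. Hspa1a (chr17:34972107-34972406, minus strand) and Hspa1b (chr17:34959189-34959488, minus strand) are shown because the difference between libraries was greatest for this pair, Hsph1 (chr5:149636287-149636586, minus strand) and Hspe1 (chr1:55087898-55088197, plus strand) because they hold the longer element.
Hspa1a: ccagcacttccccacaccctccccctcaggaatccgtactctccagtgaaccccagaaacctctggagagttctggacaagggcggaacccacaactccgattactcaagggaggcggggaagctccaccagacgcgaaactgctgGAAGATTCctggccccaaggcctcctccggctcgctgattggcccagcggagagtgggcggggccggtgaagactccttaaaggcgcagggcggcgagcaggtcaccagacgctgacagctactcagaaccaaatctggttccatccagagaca
Hspa1b: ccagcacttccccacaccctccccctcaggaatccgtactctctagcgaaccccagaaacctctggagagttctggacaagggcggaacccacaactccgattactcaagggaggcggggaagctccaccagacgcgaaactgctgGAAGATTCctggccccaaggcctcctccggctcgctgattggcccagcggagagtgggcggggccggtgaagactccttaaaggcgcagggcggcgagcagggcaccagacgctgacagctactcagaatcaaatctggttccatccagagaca
Hsph1: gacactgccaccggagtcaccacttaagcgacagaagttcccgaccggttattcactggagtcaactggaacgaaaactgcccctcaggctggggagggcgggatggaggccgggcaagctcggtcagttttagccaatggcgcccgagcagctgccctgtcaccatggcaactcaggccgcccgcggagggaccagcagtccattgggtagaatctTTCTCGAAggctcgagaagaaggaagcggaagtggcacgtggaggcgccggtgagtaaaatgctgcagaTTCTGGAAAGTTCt
Hspe1: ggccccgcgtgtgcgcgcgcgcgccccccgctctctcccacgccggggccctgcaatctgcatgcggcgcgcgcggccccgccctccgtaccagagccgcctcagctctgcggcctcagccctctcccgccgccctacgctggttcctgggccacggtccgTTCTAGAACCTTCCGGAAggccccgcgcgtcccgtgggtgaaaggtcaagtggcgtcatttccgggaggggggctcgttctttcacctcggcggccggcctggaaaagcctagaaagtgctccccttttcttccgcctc
The Hspa1a and Hspa1b windows were identical at 296 of 300 bases, and each held 1 element of the form GAANNTTC, at position -104 from the start. Hsph1 and Hspe1 held a 3-unit form, GAANNTTC followed after any 2 bases by GAA, searched on both strands, which occurred in 0.603% of the 32851 RefSeq windows of this length. In Hspe1 there were 2 such matches, which overlap. The Hspe1 window lies inside the annotated span of Hspd1, which is read in the opposite direction, and the second RefSeq window of Hspd1 (chr1:55087883-55088182, minus strand) holds the same 2 matches. The shorter forms GAANNTTC and TTCNNGAA, which also lie inside the longer one, occurred in 7.86% and 8.52% of windows, and at least 1 of them was in some window of 6 of the 7 members that the table holds (Hspa1a, Hspa1b, Hsph1, Dnaja1, Hspe1 and Hspd1). Both Dnajb1 windows and the first Hspd1 window held none of these forms, and of the 3 Dnaja1 windows only 1 held a match. The RUNX core letters TGTGGT, found in 16.8% of windows, were in none of the windows of these 7 members. A match is a description of letters, and its absence says nothing about binding.

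Over all cells 8 of the 10 genes were lower and 2 higher in the KO-labelled library. The strictly inducible HSP70 pair differed by the widest margin, Hsph1 and Hsp90aa1 were lower by a moderate amount, the mitochondrial pair by less, and the constitutive Hspa8 was higher. At least 20% lower were 4 members (Hspa1a, Hspa1b, Hsph1 and Hsp90aa1), or 2 of the 8 at 20 CPM, against 9.81% of the 5904 genes at 20 CPM in either library. Hsp90aa1 was past that limit by little, and missed it with TMM scaling (0.838), with totals without ribosomal protein and mitochondrially encoded genes (0.813) and with equal weights for marker strata (0.802). No member was at least 25% higher, which is the same fold in the other direction, where 5.3% of those genes were. The median log2 ratio of KO-labelled over WT was -0.25 for the 10 genes and -0.15 for the 8 at 20 CPM, beside -0.07 for all 5904 genes, of which 65.1% had a ratio below 1. With 8 of 10 below 1, the count of members on the lower side is thus to be read against a shift of most genes.

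**Figure D1:**
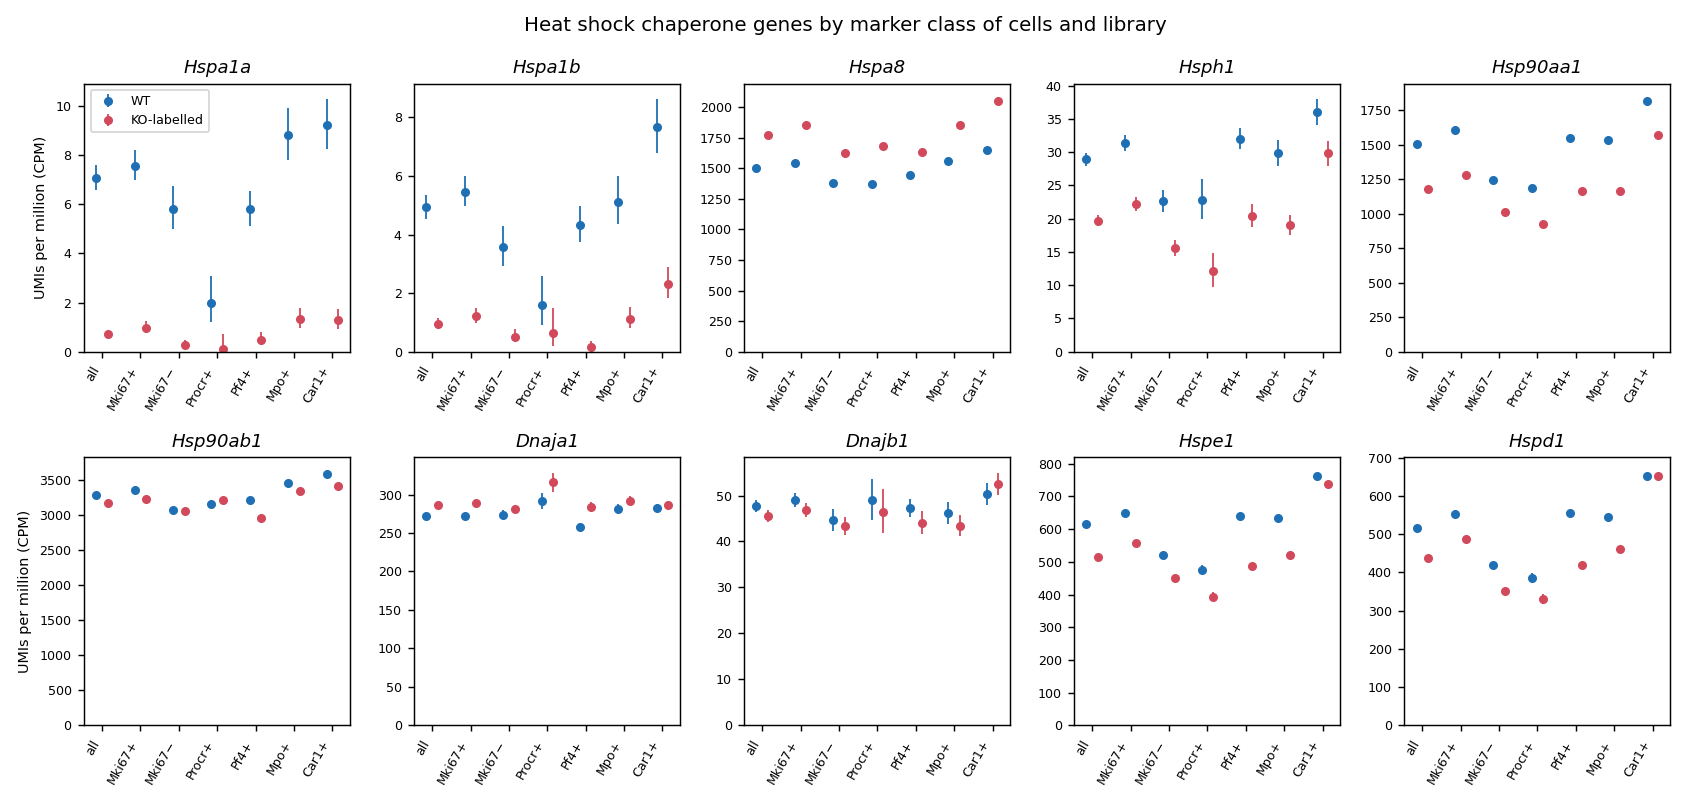
CPM of each gene (vertical axis, from 0, scaled for each gene) in all cells and in 6 overlapping marker classes of cells (horizontal axis), WT in blue and KO-labelled in red, with exact Poisson intervals for counting error and 1 library each. Hspa1a and Hspa1b lie lower in the KO-labelled library in every class, and Hspa8 lies higher in every class.

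Hspa1a, the stress-inducible cytosolic HSP70 (ENSMUSG00000091971, GRCm38 chr17:34969190-34972156, minus strand), had 798 UMIs or 7.08 CPM (interval 6.60 to 7.59) in the WT library. KO-labelled cells gave 86 UMIs or 0.721 CPM (0.577 to 0.890). The ratio was thus 0.102 (0.0805 to 0.127), or 9.82-fold lower. Its near-identical neighbour Hspa1b (ENSMUSG00000090877, chr17:34956436-34959238, minus strand) had 556 and 114 UMIs, 4.94 against 0.956 CPM, with a ratio of 0.194 (0.157 to 0.237). For both genes the Poisson intervals of the libraries lay far apart. The last 500 bases of their transcripts, where 3′ tags fall, were identical at 51.0% of aligned positions, and 0 of 411 windows of 90 bases of either occurred in another gene. Summed, the pair was at 12.02 and 1.68 CPM, 7.17-fold lower in the KO-labelled library. Among 9952 genes at 4 CPM in either library, 28 or 0.281% were at least 5-fold lower, a level chosen after these values were seen, and both genes were among them.

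The pair was read in few cells. At least 1 UMI of either occurred in 732 of 9472 WT cells (7.73%, 7.20 to 8.28) and in 135 of 10769 KO-labelled cells (1.254%, 1.05 to 1.48), at the similar median depths given above. Cells with 3 or more UMIs numbered 157 in the WT and 12 in the KO-labelled library, and held 46.3% and 23% of the pair's UMIs. The highest cell had 10 UMIs in the WT and 7 in the KO-labelled library. With every cell thinned to 3000 UMIs, where 155 and 91 shallower cells drop out, Hspa1a had a UMI in 1.51% of cells in the WT and 0.187% in the KO-labelled library, and Hspa1b in 1.28% and 0.140%. The share with a UMI differed between marker classes of the same library, from 3.30% of Procr-positive to 13.5% of Car1-positive cells in the WT and from 0.508% to 3.34% in the KO-labelled library. The lower of these, in Procr-positive cells, have median depths of 7691 and 7777 UMIs against 11884 and 11093 in Car1-positive cells, and cells in which a stress gene should be absent are not defined here, so the part of free RNA was not tested.

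The genes around the pair on chromosome 17 did not share its difference. Of the 5 nearest genes at 4 CPM on each side, the ratio ran from 0.776 for Skiv2l, an RNA helicase gene, to 1.61 for Sapcd1. Lsm2, an RNA-binding protein gene and the nearest on 1 side, was at 207 and 187 CPM, and Neu1, a lysosomal sialidase and the nearest on the other, at 10.3 and 11.7 CPM. The 10 neighbours all lay above both members of the pair.

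**Figure D2:**
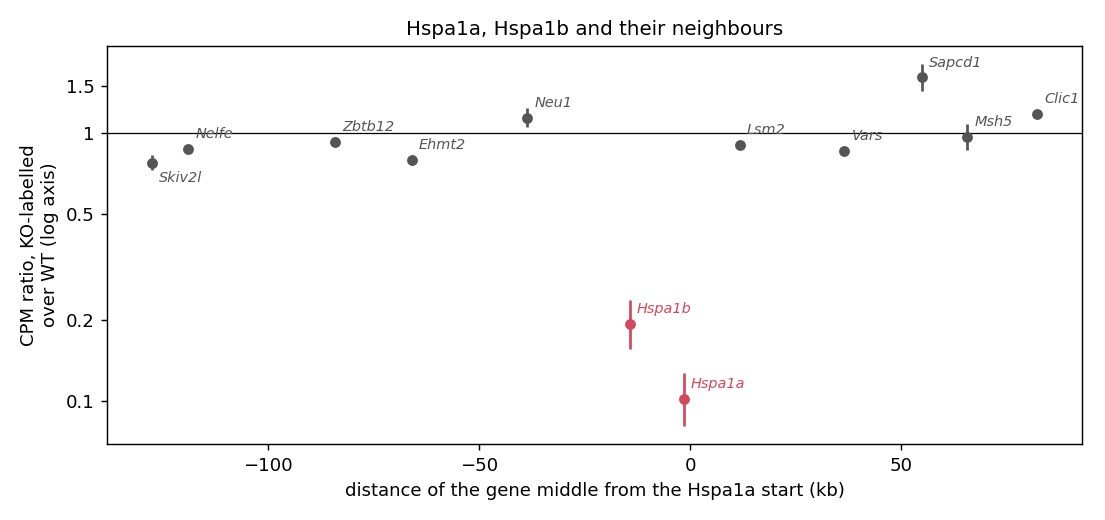
CPM ratio of KO-labelled over WT in all cells (vertical log axis) against distance from the Hspa1a start in kb (horizontal axis) for Hspa1a and Hspa1b (red) and the 5 nearest genes on either side at 4 CPM or more (grey), with exact intervals for counting error. The red points are at 0.102 and 0.194 and the grey points between 0.776 and 1.61.

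Hsph1, the HSP110 exchange factor (ENSMUSG00000029657, chr5:149614287-149636376, minus strand), was at 28.9 CPM in the WT (3256 UMIs) and 19.7 CPM in the KO-labelled library (2349 UMIs). Its ratio was 0.681 (0.646 to 0.719). Hspa8, the constitutive HSP70 that also uncoats clathrin vesicles (ENSMUSG00000015656, chr9:40800984-40810087, plus strand), went the other way, at 1499 and 1768 CPM with a ratio of 1.18 (1.17 to 1.19). Of the windows of 90 bases in the end of its transcript 79.8% also occurred in other annotated genes, 8 pseudogenes, so reads could be lost or split there and its level is uncertain. After thinning, Hspa8 was present in 96.9% (WT) and 98.2% (KO-labelled) of cells, with a median of 4 and 5 UMIs.

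Hsp90aa1, the more inducible cytosolic HSP90 (ENSMUSG00000021270, chr12:110690605-110702728, minus strand), was at 1507 CPM in WT and at 1180 CPM in KO-labelled cells. The ratio was 0.783 (0.778 to 0.789). In thinned cells its median was 4 UMIs in the WT and 3 in the KO-labelled library, and 95.3% and 91.4% of cells held it. Its constitutive relative Hsp90ab1 (ENSMUSG00000023944, chr17:45567775-45573271, minus strand) was at 3280 and 3165 CPM, a ratio of 0.965 (0.961 to 0.969). That small difference turned to 1.03 with TMM scaling and to 1.002 when ribosomal protein and mitochondrially encoded genes were left out of the totals, so it has no settled direction. The median of Hsp90ab1 in thinned cells was 9 UMIs in both libraries.

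The J-domain genes were close to level. Dnaja1, a partner of HSP70 that bears a farnesyl group (ENSMUSG00000028410, chr4:40722150-40737149, plus strand), was at 272 and 286 CPM with a ratio of 1.05 (1.03 to 1.07). Dnajb1, the inducible HSP40 (ENSMUSG00000005483, chr8:83608193-83612653, plus strand), was at 47.8 and 45.5 CPM with a ratio of 0.953 (0.918 to 0.990), which became 1.02 with TMM scaling. Thus the inducible J-domain gene did not share the margin of Hspa1a and Hspa1b, and its interval lay well above theirs. Genes on the other strand overlap Dnaja1 (Smu1 and Gm6297), Hspa1a (Gm20481) and the mitochondrial pair (each other). No source used here states whether counting used the strand.

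Hspd1, the mitochondrial HSP60 (ENSMUSG00000025980, chr1:55077835-55088243, minus strand), was at 516 and 437 CPM, a ratio of 0.847 (0.836 to 0.857). Its lid Hspe1 (ENSMUSG00000073676, chr1:55088132-55091307, plus strand), which shares its promoter region, was at 615 and 516 CPM, a ratio of 0.840 (0.831 to 0.849). The intervals of these ratios overlap. For Hspe1 36.0% of the transcript-end windows occurred in 1 other gene, which makes its level uncertain, while for Hspd1 none did.

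The differences held in cells split by marker, with exceptions. Classes were cells with at least 1 UMI of Procr (938 WT, 788 KO-labelled), Mpo (2018, 2551) or Car1 (2379, 2302), at least 3 UMIs of Pf4 (3178, 2042), and cells with (5474, 5102) or without (3998, 5667) a UMI of the cycling marker Mki67. They overlap and are ranges of marker counts, not cell types. Procr marks stem cells, Pf4 the megakaryocyte, Mpo the granulocyte and monocyte, and Car1 the erythroid line. Hspa1a, Hsph1, Hsp90aa1 and Hspe1 were lower in all 6 classes with each interval below 1, and Hspa8 was higher in all 6 with each interval above 1.

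Hspa1a ran from a ratio of 0.0496 in Mki67-negative cells (5.82 against 0.288 CPM) to 0.150 in Mpo-positive cells (8.82 against 1.32 CPM). In Procr-positive cells its ratio of 0.0640 (0.00154 to 0.400) rests on 20 WT UMIs and 1 KO-labelled UMI. Hspa1b ran from 0.0340 in Pf4-positive cells, where 203 WT and 4 KO-labelled UMIs were counted, to 0.400 (0.115 to 1.14) in Procr-positive cells, where the counts were 16 and 5. The last interval holds 1, so a difference in Hspa1b was not detectable in Procr-positive cells at this depth. In Car1-positive cells the pair stayed highest in the KO-labelled library, at 3.60 CPM summed against 16.9 CPM in the WT.

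Hsph1 ran from 0.531 (0.414 to 0.677) in Procr-positive cells, where it was at 22.8 and 12.1 CPM, to 0.828 (0.762 to 0.901) in Car1-positive cells, at 36.0 and 29.8 CPM. Hsp90aa1 was between 0.752 in Pf4-positive and 0.862 in Car1-positive cells. Hspd1 was at 556 and 420 CPM in Pf4-positive cells, a ratio of 0.755 (0.738 to 0.772), and at 653 and 652 CPM in Car1-positive cells, a ratio of 0.999 (0.980 to 1.02). Hspe1 showed the like span, from 0.762 to 0.965 in the same classes. The mitochondrial pair was therefore lower in the Pf4-positive class and about level in the Car1-positive class, and the Pf4 and Car1 intervals of Hspd1 do not overlap, although the difference between classes was not tested over samples.

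Dnaja1 was higher in all 6 classes, with 4 intervals above 1, from 1.01 in Car1-positive to 1.10 in Pf4-positive cells. Dnajb1 lay between 0.932 and 1.04, and no interval left 1 out. Hsp90ab1 was lower in 5 classes and higher in Procr-positive cells, at 3153 and 3213 CPM.

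By class the median log2 ratio of the 10 genes was -0.20 in Mki67-positive, -0.23 in Mki67-negative, -0.25 in Procr-positive, -0.40 in Pf4-positive, -0.26 in Mpo-positive and -0.06 in Car1-positive cells. For the 8 members at 20 CPM the medians were nearer 0, at -0.12, -0.13, -0.15, -0.26, -0.16 and -0.03 in the same order. All genes at 20 CPM, the set to compare with these 8, had medians between -0.07 and -0.05 in these classes. Of the 8 members at 20 CPM, 2 were at least 20% lower in Mki67-positive cells (8.82% of all genes there), 1 in Mki67-negative cells (12.3%), 2 in Procr-positive cells (12.1%), 4 in Pf4-positive cells (11.8%), 2 in Mpo-positive cells (9.49%) and 0 in Car1-positive cells (10.9%). None of the 10 was 25% higher in any class, where 4.95%, 6.03%, 7.27%, 6.72%, 5.23% and 4.66% of all genes were, in the same order. The Pf4-positive class had the most members past the fold, namely Hsph1, Hsp90aa1, Hspe1 and Hspd1. Pf4, which defines this class, itself differed over all cells, at 1483 CPM in the WT and 485 CPM in the KO-labelled library (ratio 0.327). The other class markers had ratios from 0.749 for Procr to 1.32 for Mpo. Whether the same UMI cutoff picked like cells in both libraries was not tested. Level and cell makeup therefore cannot be told apart in the Pf4-positive class.

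**Figure D3:**
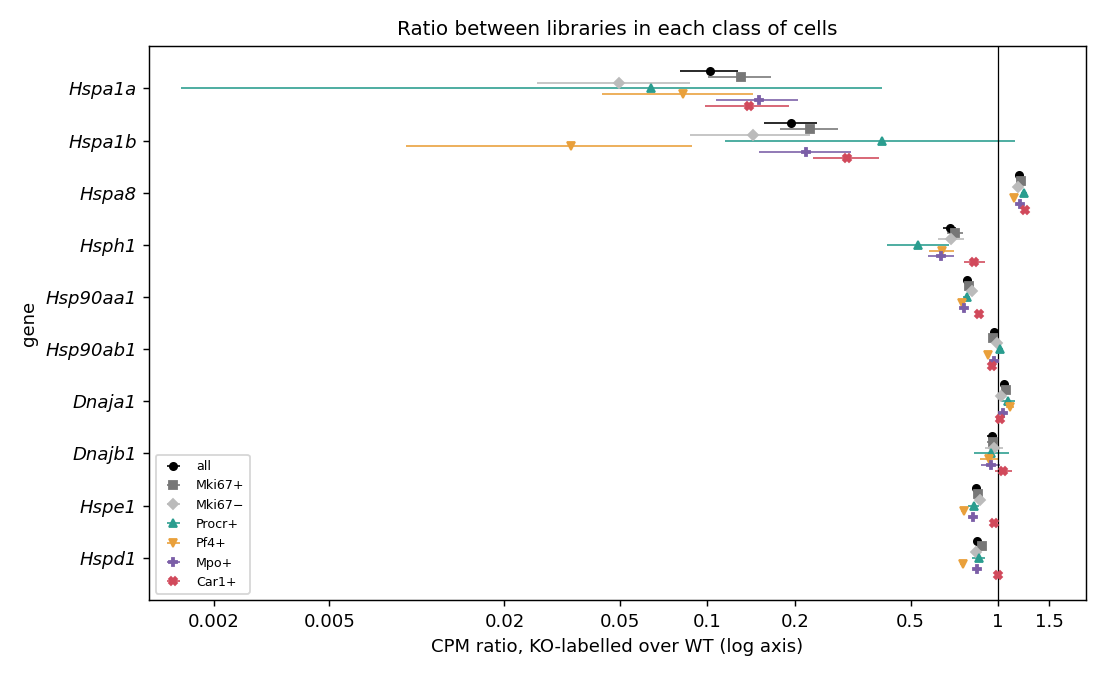
CPM ratio of KO-labelled over WT (horizontal log axis) for each gene (vertical axis) in all cells and in the 6 marker classes (symbols), with exact conditional intervals for counting error, 1 library each. Hspa1a and Hspa1b lie left of 1 in all classes, with the Procr-positive interval of Hspa1b reaching past 1, Hspa8 lies right of 1, and the Car1-positive points of Hspe1 and Hspd1 lie near 1.

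Car1-positive cells were highest for 9 of the 10 genes in the WT library, all but Dnaja1, and for 8 in the KO-labelled library, where Hspa1a was highest in Mpo-positive cells. Procr-positive cells were lowest for 8 genes in the WT and for 5 in the KO-labelled library, where Pf4-positive cells were lowest for 4 (Hspa1b, Hspa8, Hsp90ab1 and Dnaja1). The share of all genes highest or lowest in each class was not computed. Some of these ranks lie within counting error. The intervals of Car1- and Mpo-positive cells overlap for Hspa1a in both libraries. Those of Procr- and Pf4-positive cells overlap for Hspa1b in the KO-labelled library. Depth was not made equal between these classes. Procr-positive cells had medians of 7691 (WT) and 7777 UMIs (KO-labelled), and Car1-positive cells 11884 and 11093. In WT cells the levels of Hspd1 and Hsp90aa1 rose with UMIs per cell, as given below. The part of depth in the order of classes was not tested. The full order of the 4 lineage classes was the same in both libraries for 2 genes, Hsph1 and Dnajb1. For Hspd1 the WT levels were 653 CPM in Car1-positive, 556 in Pf4-positive, 544 in Mpo-positive and 385 in Procr-positive cells, and the Pf4 and Mpo intervals overlap. The KO-labelled levels were 652, 420, 461 and 330 CPM, with no overlap between neighbours. Dnaja1 had the reverse top, with 292 CPM in Procr-positive WT and 316 CPM in Procr-positive KO-labelled cells. Dnajb1 spanned only 46.1 to 50.3 CPM over the WT classes, and its neighbours in that order did not differ beyond their intervals. Exclusive strata, cells with 1 of the 4 lineage markers alone or with none, split by Mki67, gave 20 groups of at least 50 cells. In them Hsp90aa1 was highest in Car1, Mki67-positive cells at 2044 CPM in the WT and 1777 CPM in the KO-labelled library, and lowest in Procr, Mki67-negative cells at 889 and 726 CPM. The former strata had medians of 12669 and 13091 UMIs per cell, the latter 6167 and 6665.

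Cells with Mki67 UMIs had higher chaperone levels than cells without, but depth moved with this. Pooled over depths, 9 of 10 genes in the WT and 10 of 10 in the KO-labelled library were higher in Mki67-positive cells, while 41.7% and 45.5% of all genes at 20 CPM had a ratio below 1. At least 25% higher at 20 CPM were 3 of 8 in each library, beside 15.2% of all genes in the WT and 18.9% in the KO-labelled library, and none was 20% lower, beside 10.1% and 12.8%. Hspd1 was at 553 against 418 CPM in the WT (ratio 1.32, 1.30 to 1.35) and at 488 against 352 CPM in the KO-labelled library (1.39, 1.36 to 1.41). Hsph1 had ratios of 1.38 and 1.43, Hsp90aa1 of 1.29 and 1.26, and Dnaja1 of 0.992 and 1.03. The median log2 difference of the members was 0.34 and 0.32, and that of all genes 0.05 and 0.04.

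Mki67-positive cells had medians of 12734 and 12797 UMIs, and Mki67-negative cells 6996 and 7261. The level of Hspd1 in WT cells went from 287 CPM in the lowest of 4 equal-sized bins of UMIs per cell to 628 CPM in the highest, and that of Hsp90aa1 from 975 to 1724 CPM. With equal weights for these 4 bins the median log2 difference of Mki67-positive over Mki67-negative cells was 0.014 in the WT and 0.015 in the KO-labelled library, and Hspd1 had ratios of 0.992 and 0.956. With Mki67 read after thinning the medians were 0.091 and 0.157. Of the members at 20 CPM the ratio farthest from 1 at equal depth weights was that of Dnajb1 in the WT, at 1.13, while Hspa1a and Hspa1b in the KO-labelled library, on few UMIs, had 1.56 and 1.37. The pooled differences of the abundant members between Mki67-positive and Mki67-negative cells were thus small at equal depth.

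**Figure D4:**
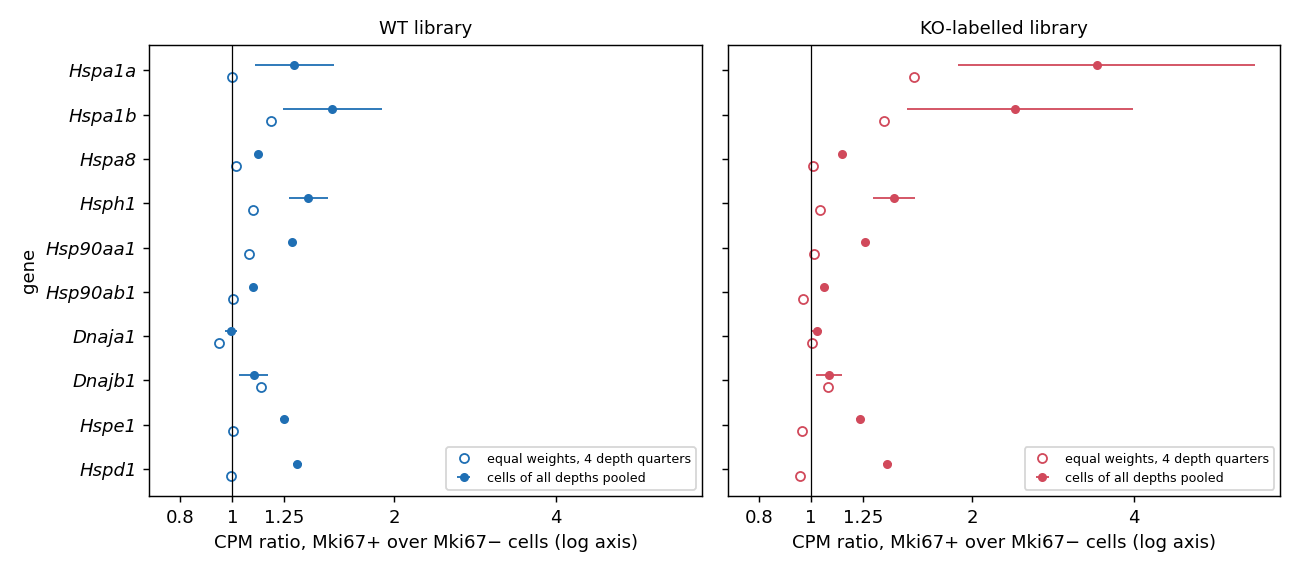
CPM ratio of Mki67-positive over Mki67-negative cells (horizontal log axis) for each gene in the WT (left) and KO-labelled library (right). Filled points with exact counting intervals pool cells of all depths, and open points weight 4 bins of UMIs per cell equally. Open points lie near 1 for the genes at 20 CPM.

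Most members, by contrast, were lower in the KO-labelled library at every depth and mitochondrial share examined. In 4 equal-sized bins of UMIs per cell 8 of the 10 genes were lower each time, with median log2 ratios from -0.29 to -0.13. Among these 8, the interval of Dnajb1 held 1 in all 4 bins and that of Hsp90ab1 in the middle bins. The share of all genes below 1 was not computed by bin. Over all cells it was 65.1%, with a median of -0.07. In 4 such bins of mitochondrial share 7 or 8 were lower, with medians from -0.35 to -0.18. WT Hspa1a was at 12.8 CPM in the bin of lowest mitochondrial share and 4.42 CPM in the highest, and KO-labelled Hspa1a at 0.787 and 0.402 CPM.

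In male cells alone (6690 against 973) the ratio was 0.0490 for Hspa1a, 0.129 for Hspa1b, 0.565 for Hsph1, 0.745 for Hsp90aa1, 0.809 for Hspd1 and 1.14 for Hspa8. These ratios were farther from 1 than over all cells, except that of Hspa8, which was slightly closer. Dnajb1, at 0.996, and Dnaja1, at 1.04, were also closer to 1. No interval was computed for the male ratios. Those of Hspa1a and Hspa1b rest on few UMIs, at 0.377 and 0.660 CPM in male KO-labelled cells. Within the KO-labelled library male over female cells had a ratio of 0.977 for Hsp90aa1, 0.980 for Hspa8 and 0.997 for Hspd1. Hsph1 was lower in the male cells, with a ratio of 0.849 (0.725 to 0.989). Hspa1a had 0.483 (0.128 to 1.29) and Hspa1b 0.678 (0.265 to 1.45), intervals that hold 1.

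The other genes of the folding network were taken from lists chosen with earlier results of these data known. Of HSP90 co-chaperones 13 of 14 reached 20 CPM, and each of the 13 had a ratio below 1 (median log2 ratio -0.22), beside 65.1% of all genes. The intervals of Ahsa2, Sugt1 and Tomm34 held 1. At least 20% lower were 3 of the 13, beside 9.81% of all genes. Fkbp5, at 31.3 and 24.0 CPM, and Fkbp4, at 259 and 205 CPM, encode immunophilins of steroid receptor complexes. The third was Ptges3, the p23 co-chaperone, at 255 and 199 CPM. Their ratios of 0.767, 0.788 and 0.781 lay near the limit. TMM scaling, which raised all log2 ratios by 0.10, brings these genes inside it. The same scaling puts Ahsa1, Ahsa2, Sugt1 and Tomm34 above 1. Among HSP70 partners 10 of 11 were lower (median -0.13), led by the exchange factor Hspbp1 at 61.9 and 42.5 CPM and the HSP110 relative Hspa4l at 45.2 and 31.1 CPM. In the heat shock factor list 2 of 5 genes reached 20 CPM and both were lower (median -0.29), namely Hsf1, the master regulator of the heat shock response, at 26.1 and 20.4 CPM, a ratio of 0.782 (0.741 to 0.826), and Hsbp1, which encodes a factor-binding protein, at 142 and 121 CPM.

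Of the other J-domain genes 5 of 9 were lower (median -0.05), of TRiC chaperonin and prefoldin genes 8 of 13 (-0.06), of mitochondrial chaperones and proteases 8 of 10 (-0.08) and of proteasome subunits 20 of 25 (-0.07). These medians lie close to the -0.07 of all genes. The single small heat shock protein at 20 CPM had a log2 ratio of -0.18. Endoplasmic reticulum chaperones had 8 of 11 lower, beside 65.1% of all genes, with a median of -0.22. Among them were the lectin chaperones Calr at 684 and 530 CPM and Canx at 201 and 159 CPM. By class the median of this list was -0.00023 in Pf4-positive cells and between -0.30 and -0.13 in the other classes. Immediate early genes, which encode transcription factors and regulators that respond quickly to growth and stress signals, went the other way: 12 of 13 were higher with a median of 0.36, 7 of them by at least 25%, beside 5.3% of all genes. By class that median ran from 0.10 in Car1-positive cells, where 7 of 12 were higher, to 0.35 in Mpo-positive cells. Over all cells Fosb was at 29.99 and 62.7 CPM and Fos at 40.7 and 78.1 CPM. The mRNA-decay factor Zfp36 was at 19.8 and 31.0 CPM, while Egr1 was lower at 22.5 and 14.6 CPM. Hspa1a and Hspa1b on one side and Fos and Fosb on the other thus differed in opposite directions between the same libraries.

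**Figure D5:**
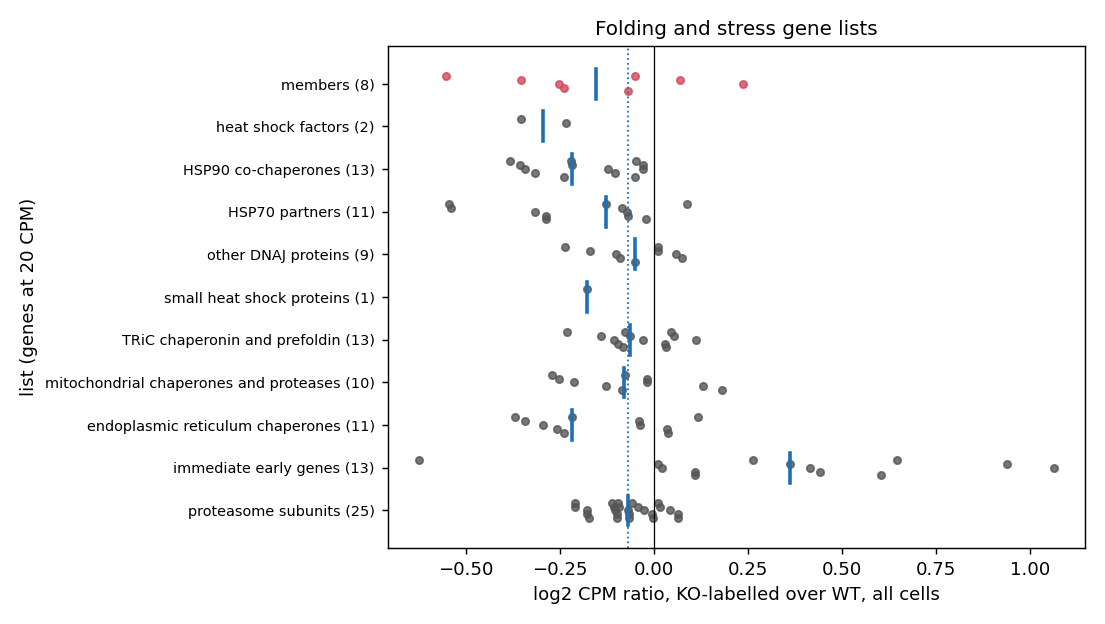
The log2 CPM ratio of KO-labelled over WT in all cells (horizontal axis) for each gene at 20 CPM or more, by list (vertical axis, number of genes in brackets), with the 8 members in red, list medians as blue bars and the median of all genes as a dotted line. With CPM scaling HSP90 co-chaperones all lie below 0, and 12 of 13 immediate early genes lie above 0.

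Genes with the most similar pattern were found over the 20 strata by Pearson's r of log2(CPM + 1), as a description. For Hspd1 these were Ncl (0.980), which encodes nucleolin, Nolc1 (0.978), C1qbp (0.970), Ftsj3 (0.970) and Psmd7 (0.968), and among the members Hspe1 had 0.980 and Hsp90aa1 0.924. For Hsp90ab1 the nearest was Gatm (0.916), followed by Ddx49, Dohh, Npm3 and Mrps35 between 0.836 and 0.807. For the summed Hspa1a, Hspa1b and Dnajb1 they were Ddx3x (0.884), Gga2 (0.883), Cenpv (0.882), Srpk1 (0.865) and Cox6b2 (0.862). Dnajb1 made up most of that sum, at 47.8 CPM (WT) and 45.5 CPM (KO-labelled) beside 12.02 and 1.68 CPM for the HSP70 pair. With the sum Hspa1a had 0.736, Hspa1b 0.845 and Dnajb1 0.760, and Hsp90aa1, which is not part of it, 0.852. These genes therefore do not describe the pattern of the pair alone. The strata come from 2 libraries and share depth and lineage makeup.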

How the data were processed

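Raw UMI counts were used as the authors deposited them. The submitters' processing notes name Cell Ranger 2.1.1 and mm10, the file headers software version 3.1.0, and the labels give the 3′ v2 kit. About 10000 sorted cells went into each library per the labels. Barcodes with at least 500 genes and at most 10% mitochondrially encoded UMIs were kept, 9472 of 9969 (WT) and 10769 of 11398 (KO-labelled), holding 112655858 and 119272042 UMIs. Doublets were not removed.

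UMIs were summed per library and class and scaled to CPM. Intervals are exact Poisson for sums, conditional binomial for ratios and Clopper-Pearson for shares. A count of 0 was set to 3 for a ratio. With 1 library per genotype no test was made, and a difference of 20% lower or 25% higher at 20 CPM in either library served as a rule of size. Thinning drew 3000 UMIs per cell without replacement. Male cells had a UMI of 1 of 4 Y-linked genes and no Xist, female cells at least 2 Xist UMIs and no Y-linked one.

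All 10 members are named. Of each other list, up to 4 genes with the widest ratio past that rule are named, and for likeness the 5 with the highest r. Members and lists were chosen with earlier results of these data known. Steps were checked on drawn counts. Alternatives to scaling (TMM from edgeR 4.0.16), filters, depth, class rules and thresholds were run. Gene places are from GENCODE M21, promoters from RefSeq. The code ran in Python 3.11.15 with scipy 1.17.1 and numpy 2.4.6.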

Additional observations from a re-analysis of the deposited data

Results flagged for a closer look

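Hsp90ab1 stood out because its ratio of KO-labelled over WT lay on different sides of 1 in different classes of cells, with an interval off 1 each time. The ratio was 0.920 in Pf4-positive, 0.968 in Mpo-positive and 0.952 in Car1-positive cells and 1.02 in Procr-positive cells. The difference between the classes was not tested, since each class has 1 library per genotype.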

How the results depend on the processing

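The ratio of each member between libraries was recomputed under 13 alternatives. Hspa1a, Hspa1b, Hspa8, Hsph1, Hsp90aa1, Dnaja1, Hspe1 and Hspd1 stayed on 1 side of 1 in all 13. Hsp90ab1 turned to 1.03 with TMM and to 1.002 without ribosomal protein and mitochondrially encoded genes in the totals, and Dnajb1 turned to 1.02 with TMM, which raised all log2 ratios by 0.10. The median log2 ratio over all cells (-0.25) was -0.15 with TMM, -0.19 without those genes in the totals, -0.28 as a mean of each cell's CPM, -0.33 with the stricter filter (1000 genes, 5% mitochondrial, 4985 and 8701 cells), -0.36 without the 5% deepest cells, -0.28 thinned, -0.20 with equal strata, -0.28 in male cells and -0.15 over the 8 members at 20 CPM. Alternatives added after seeing the data gave -0.29 with equal bins of mitochondrial share and -0.22 with equal bins of depth. The count lower (4) was 2 at 1.5-fold and 2 at 20 CPM, 3 with TMM, with the reduced totals and with equal strata, 5 with the stricter filter and 6 without the deepest cells, and TMM put 1 member (Hspa8) past the 25% rule on the higher side. At 5 CPM 13.9% of all genes were lower and 6.49% higher.

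Class medians were, with markers read after thinning, -0.29 (Mki67-negative), -0.32 (Procr) and -0.30 (Mpo). With 1 UMI more Mki67-positive cells had -0.18 and Procr cells -0.16, and with 1 lineage marker only Procr cells had -0.16, Mpo cells -0.30 and Car1 cells -0.10, beside -0.25 for Procr cells as reported. The stricter filter gave -0.27 (Mki67-positive), -0.34 (Mki67-negative), -0.37 (Procr), -0.45 (Pf4), -0.33 (Mpo) and -0.10 (Car1). Male cells gave -0.28 (Mki67-negative), -0.44 (Pf4) and 0.037 (Procr), the last from 58 KO-labelled cells in which 2 members had no UMI and were set to 3, and -0.57 with those 2 taken as lowest. The Mki67 medians of 0.34 (WT) and 0.32 (KO-labelled) were 0.091 and 0.157 after thinning, 0.13 and 0.23 with the stricter filter, 0.21 and 0.21 with equal lineage weights, 0.0136 and 0.0148 with equal bins of depth, and 0.34 in KO-labelled cells with 2 Mki67 UMIs. The cause of these moves was not tested. No paired analysis was possible because each genotype had 1 library.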
